A study of Mus musculus with 8 samples.

Results

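The 8 genes T, Eomes, Mixl1, Gsc, Evx1, Mesp1, Msgn1 and Tbx6, transcription factors of the primitive streak and early mesoderm, were taken by symbol from a deposited table of 23284 mouse gene entries, and all 8 had an entry. RNA from mouse embryonic stem (ES) cells, of mixed strain per the labels, was sequenced in 4 groups of 2 libraries. Clone 6 carried a doxycycline-inducible Ctcfl transgene and is called the transgenic line; it was grown for 48 h off feeder cells with 2 µg/ml doxycycline or without it. Clone 7 lacked the transgene, is called the non-transgenic line, and was grown in the same 2 ways. Ctcfl (Boris) is a zinc finger protein of male germ cells, related to the insulator protein Ctcf. Each line is 1 clone, so a difference between the lines cannot be told apart from a difference between clones. The labels speak of biological replicates, and the titles carry the same pair of marks in all 4 groups, so that each mark joins 1 library of every group; what the marks stand for is not stated, and the deposited p-values may measure a spread that is partly technical. The table holds 1 FPKM value per gene and group (a read count divided by transcript length and by library size), in which the authors joined both libraries; no level below therefore has an SD, and the depth of each library is unknown.

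The primitive streak is where cells leave the epiblast of the gastrulating embryo to form mesoderm and endoderm, under Wnt, Nodal, Fgf and Bmp signals. T (brachyury) and Eomes are T-box factors that act at the start of this step, T mainly in posterior mesoderm and notochord and Eomes mainly in the anterior streak and endoderm; Tbx6 is a T-box factor of later, paraxial mesoderm. Mixl1, Gsc and Evx1 are homeobox factors of the streak, with Gsc marking its anterior end and Evx1 its posterior end. Mesp1 and Msgn1 are basic helix-loop-helix factors, of cardiovascular and of presomitic mesoderm. Pluripotent ES cells resemble the epiblast before this step.

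The 8 genes lie on 6 chromosomes, and all are protein coding (positions of the RefSeq genes on GRCm38.p6, the assembly that mm10 names). T is on chromosome 17 (8434423 to 8442496, plus strand) and Eomes on chromosome 9 (118478186 to 118486132, plus strand). Chromosome 7 holds Tbx6 (126781483 to 126785548, plus strand) and Mesp1 (79792241 to 79793590, minus strand). Chromosome 12 holds Gsc (104471209 to 104473236, minus strand) and Msgn1 (11208382 to 11208948, minus strand). Mixl1 is on chromosome 1 (180693043 to 180697034, minus strand) and Evx1 on chromosome 6 (52313498 to 52318389, plus strand). Msgn1 has 1 exon and a transcript of 613 bases in the GENCODE M21 basic set, the shortest of the 8, while T and Tbx6 have 8 exons each. The authors' entry for Evx1 spans 52308389 to 52318378, the same interval as their entry for the antisense transcript 5730457N03Rik (RefSeq symbol Evx1os). No source used here gives the strand setting, so reads of Evx1 and of this transcript may not have been told apart.

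Promoter sequence was found for 7 of the 8 genes in the RefSeq table of GRCm38.p6. The 250 bases before the start are shown for the pair with the largest levels (T and Eomes), for Msgn1, which held the most matches to the TCF/LEF motif of Wnt signalling, and for Tbx6, whose level was alike in both lines. The intervals are chr17:8434173-8434422 (plus strand), chr9:118477939-118478188 (plus strand), chr12:11208949-11209198 (minus strand) and chr7:126781233-126781482 (plus strand), and each sequence is written 5′ to 3′ on the strand of its gene. The Eomes window ends at 118478188, slightly past the RefSeq gene start of 118478186 given above, and lies just before the start of the authors' entry, 118478189. Capitals mark exact matches, on either strand, to the TCF/LEF letters CTTTGA or CTTTGT and to the TATA box letters TATAAA. Other forms of these motifs were not searched for, so a window without capitals may still hold such a form.
T: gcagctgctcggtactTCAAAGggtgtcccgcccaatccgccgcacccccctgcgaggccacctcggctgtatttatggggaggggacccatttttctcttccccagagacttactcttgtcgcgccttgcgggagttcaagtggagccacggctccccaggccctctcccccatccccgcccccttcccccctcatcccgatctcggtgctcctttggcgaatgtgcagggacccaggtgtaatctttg
Eomes: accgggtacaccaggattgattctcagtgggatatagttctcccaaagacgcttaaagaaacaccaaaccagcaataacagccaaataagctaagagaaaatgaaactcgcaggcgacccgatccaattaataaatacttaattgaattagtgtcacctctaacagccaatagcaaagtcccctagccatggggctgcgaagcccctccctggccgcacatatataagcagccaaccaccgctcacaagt
Msgn1: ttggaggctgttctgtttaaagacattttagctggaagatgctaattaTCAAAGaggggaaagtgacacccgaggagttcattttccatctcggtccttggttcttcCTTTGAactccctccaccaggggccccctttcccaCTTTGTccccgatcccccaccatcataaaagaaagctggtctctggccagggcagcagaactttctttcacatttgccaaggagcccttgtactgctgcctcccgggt
Tbx6: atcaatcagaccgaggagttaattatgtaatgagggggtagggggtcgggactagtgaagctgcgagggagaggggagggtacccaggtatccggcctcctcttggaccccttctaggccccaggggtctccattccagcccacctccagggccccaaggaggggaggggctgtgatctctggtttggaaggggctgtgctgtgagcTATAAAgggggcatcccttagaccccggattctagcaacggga

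The TCF/LEF letters stood in 3 of the 7 windows, those of T (1 match, -234 to -229 from the start), Mesp1 (2 matches) and Msgn1 (3 matches), against 27.6% of all 32851 promoter windows of this length. TATAAA was found in the windows of Tbx6 (-43 to -38) and Gsc (-164 to -159), against 12.4% of all windows. The T-box letters TCACACC (3.33% of all windows), the FOXH1 letters AATNCACA (3.18%) and the SMAD letters GTCTAGAC (0.167%) were in none of the 7 windows. A match is a description of the letters only, and the motifs were chosen with the expression values known.

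The first question was how the levels are ordered within each group. In the transgenic line without doxycycline, T was highest at 22.4 FPKM, followed by Eomes at 18.8 FPKM. Gsc (3.37 FPKM), Evx1 (2.51 FPKM) and Mixl1 (2.08 FPKM) came next, and Mesp1 (0.845 FPKM), Tbx6 (0.545 FPKM) and Msgn1 (0.412 FPKM) lay below 1 FPKM. T and Eomes therefore stood apart from the 6 others, but with no value per library no neighbour in this order can be said to differ from the next. With doxycycline the same line had T at 36.3 and Eomes at 15.2 FPKM. The homeobox genes Gsc, Mixl1 and Evx1 were then at 3.52, 3.50 and 3.44 FPKM. Msgn1 was at 1.34 FPKM, Mesp1 at 0.714 FPKM and Tbx6 at 0.441 FPKM.

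In the non-transgenic line the order was different and all levels were low. Eomes was highest at 2.79 FPKM without and 2.67 FPKM with doxycycline, and T followed at 1.67 and 2.02 FPKM. The other 6 genes were below 1 FPKM in both groups. Gsc was at 0.901 FPKM without and 0.638 FPKM with doxycycline, Mixl1 at 0.800 and 0.653 FPKM, and Tbx6 at 0.542 and 0.529 FPKM. Evx1 was at 0.262 and 0.200 FPKM and Mesp1 at 0.109 and 0.103 FPKM. Msgn1 was listed at 0 in both groups, which can be a failed estimate in a table without counts. By rank among the 23284 entries, T stood at place 2642 in the transgenic line with doxycycline, 3927 without it, and 10778 and 11136 in the non-transgenic line with and without it.

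**Figure D1:**
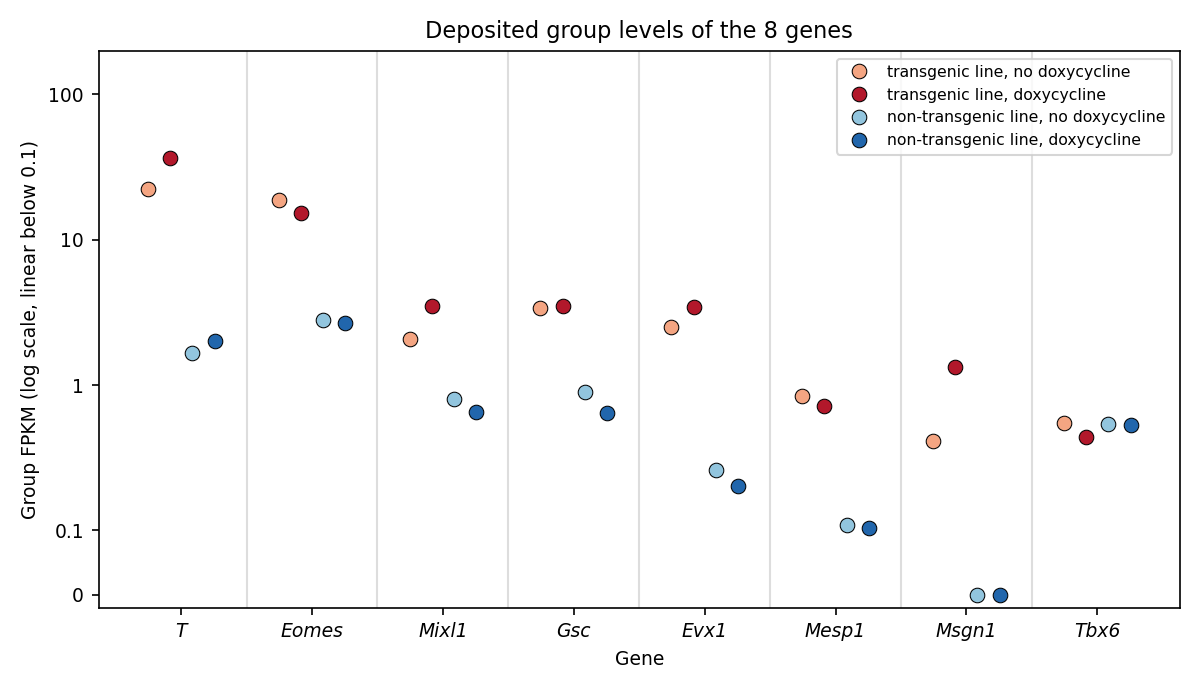
Group FPKM of the 8 genes (vertical axis, logarithmic above 0.1 and linear below it), with 1 point per gene and group, each the authors' value over 2 libraries and so without an error bar. For 7 genes both transgenic points lie above both non-transgenic points; for Tbx6 all 4 points lie between 0.441 and 0.545 FPKM, and both non-transgenic points of Msgn1 are at 0.

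The second question was whether the lines differ without doxycycline. T was 13.4-fold higher in the transgenic line in the authors' deposited table (log2 3.75, SE 0.49, q = 0.00812). Eomes was 6.75-fold higher in the authors' deposited table (log2 2.75, SE 0.40, q = 0.00812), and Evx1 was 9.59-fold higher (log2 3.26, SE 0.70, q = 0.04995). Each SE is the log2 ratio over the deposited test statistic. Of the 8 genes, 5 were tested in the authors' deposited table and 3 of these were called higher in the transgenic line (q under 0.05), against 0.797% of all 13047 tested genes called in that direction. By fold among tested genes with a value above 0 in both groups, T stood at place 12, Evx1 at 13 and Eomes at 24.

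The remaining homeobox genes did not pass the test. Gsc was at 3.37 against 0.901 FPKM, a 3.74-fold ratio (log2 1.90, SE 0.43), with p = 0.01105 and q = 0.428 in the authors' deposited table. Mixl1 was at 2.08 against 0.800 FPKM, a 2.60-fold ratio (log2 1.38, SE 0.77), with p = 0.0062 and q = 0.296 in the authors' deposited table. For this pair the deposited p and statistic do not run in the same order, since the statistic of Gsc was 4.39 and that of Mixl1 1.80. The basic helix-loop-helix genes were not tested by the authors. Mesp1 was at 0.845 against 0.109 FPKM, a 7.72-fold ratio of low values with no replicate check, and Msgn1 at 0.412 FPKM against a value listed at 0, for which no fold is given. Tbx6, also not tested, was at 0.545 against 0.542 FPKM, so the levels of this gene were nearly equal.

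The third question was whether the same holds between the lines with doxycycline, which other libraries measured. T was at 36.3 against 2.02 FPKM, 18.0-fold higher in the authors' deposited table (log2 4.17, SE 0.49, q = 0.00812), and Eomes at 15.2 against 2.67 FPKM, 5.70-fold higher (log2 2.51, SE 0.44, q = 0.00812). Mixl1 was 5.36-fold higher, at 3.50 against 0.653 FPKM in the authors' deposited table (log2 2.42, SE 0.78, q = 0.0344). Of 5 tested genes, 3 were thus called higher in the authors' deposited table, against 0.857% of all 13064 tested genes. Evx1 had a 17.2-fold ratio, at 3.44 against 0.200 FPKM, but did not pass (p = 0.00125, q = 0.0982 in the authors' deposited table). Gsc had a 5.52-fold ratio, from 0.638 to 3.52 FPKM, and did not pass either (p = 0.00805, q = 0.351 in the authors' deposited table). Mesp1 had a 6.90-fold ratio without a test, Msgn1 was at 1.34 FPKM against 0, and Tbx6 was at 0.441 against 0.529 FPKM, a log2 ratio of -0.26 without a test.

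Both line comparisons rest on separate libraries of the same 2 clones. T and Eomes were called in both, Evx1 without doxycycline and Mixl1 with it. A change in the gap between the lines is tested below for T, Eomes and Mixl1, and was not tested for Evx1. By value alone, with no threshold, all 8 genes had the higher FPKM in the transgenic line without doxycycline and 7 of 8 with it, beside 49.8% and 46.3% of all tested genes. The difference of Tbx6 without doxycycline was close to 0 and turned negative on the TPM scale. On the log2(FPKM + 1) scale the median difference over the 8 genes was 0.99 without and 1.45 with doxycycline, beside -0.00082 and -0.019 over all tested genes. The 8 genes include Mesp1, Msgn1 and Tbx6, which were not tested, while the shares and medians beside them, here and below, cover tested genes only. Of all tested genes 78 were called higher in the transgenic line in both comparisons.

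**Figure D2:**
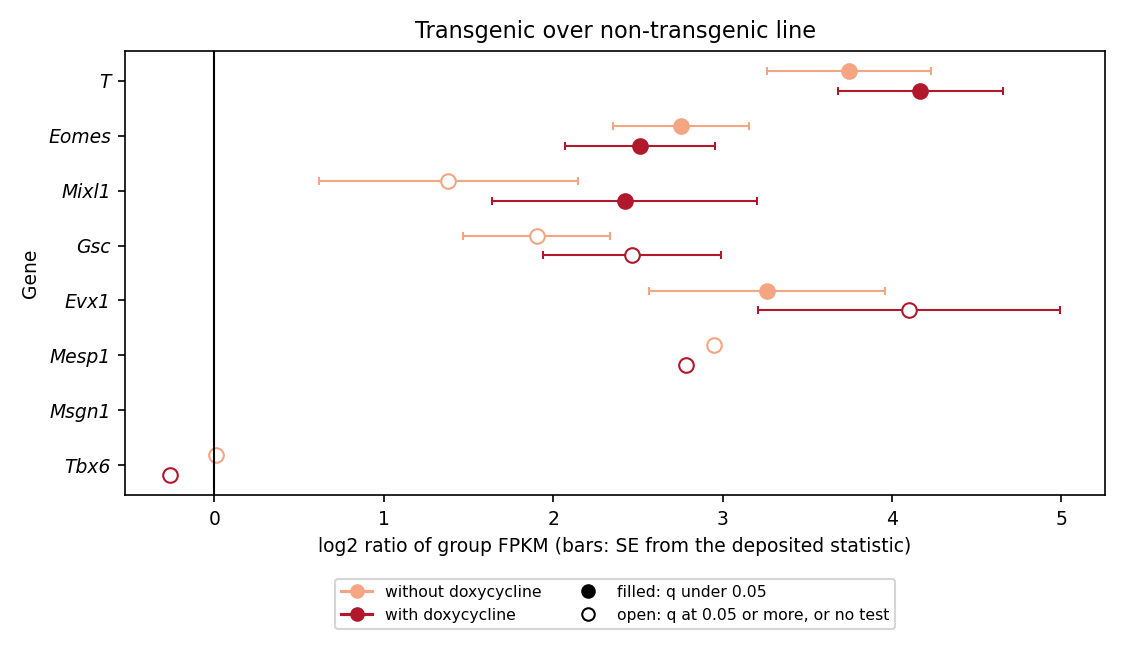
log2 ratio of group FPKM, transgenic over non-transgenic line (horizontal axis), for each gene without (light) and with (dark) doxycycline; bars are 1 SE from the deposited statistic where a test was made, and filled points had a q under 0.05. T and Eomes are filled in both comparisons, Tbx6 lies near 0, and Msgn1 has no point because it was listed at 0 in the non-transgenic line.

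The fourth question was whether these genes differ with doxycycline. The targeted gene itself was low: Ctcfl was at 0.995 FPKM with and 0.403 FPKM without doxycycline in the transgenic line, a 2.47-fold ratio that was not called (p = 0.0062, q = 0.296 in the authors' deposited table), and at 0.498 and 0.513 FPKM in the non-transgenic line. Whether the entry counts reads of the transgene is not known. For T, the levels of 36.3 FPKM with and 22.4 FPKM without doxycycline in the transgenic line gave a 1.62-fold ratio (log2 0.70, SE 0.27) that did not pass the test (p = 0.0021, q = 0.141 in the authors' deposited table). Mixl1 was at 3.50 and 2.08 FPKM, a 1.68-fold ratio with p = 0.022 and q = 0.634 in the authors' deposited table. Evx1 was at 3.44 and 2.51 FPKM (log2 0.46, SE 0.53), and Gsc at 3.52 and 3.37 FPKM (log2 0.06, SE 0.28). The T-box factor Eomes went the other way, at 15.2 FPKM with and 18.8 FPKM without doxycycline (log2 -0.30, SE 0.30), and did not pass the test. By the Cuffdiff-type test, 0 of the 5 tested genes were called in the authors' deposited table, and 2 (T and Mixl1) had an unadjusted p under 0.05. Over all 13003 tested genes 0.108% were called and 140 had an unadjusted p under 0.05.

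The 3 genes without a test in the transgenic line were low in both groups. Msgn1 was at 1.34 FPKM with and 0.412 FPKM without doxycycline, Mesp1 at 0.714 and 0.845 FPKM, and Tbx6 at 0.441 and 0.545 FPKM. The 3.25-fold ratio of Msgn1 was the largest of the 8, from a short gene of low level with no replicate check. The median difference over the 8 genes was 0.19 on the log2(FPKM + 1) scale, with 5 genes above 0 and 3 below, beside 0.00026 over all tested genes. By value alone 50.1% of all tested genes were higher with doxycycline in the transgenic line.

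In the non-transgenic line, which has no transgene, T was at 2.02 FPKM with and 1.67 FPKM without it (log2 0.27, SE 0.64) and Eomes at 2.67 and 2.79 FPKM (log2 -0.06, SE 0.51). Mixl1 was at 0.653 and 0.800 FPKM (log2 -0.29, SE 0.92). Of these 3 tested genes 0 were called by Cuffdiff-type testing in the authors' deposited table, none having an unadjusted p below 0.05 (0 of 3), and 0% of the 12908 tested genes were called, with 14 at an unadjusted p under 0.05. Gsc, Evx1, Mesp1 and Tbx6, all below 1 FPKM and without a test, were lower with doxycycline by value alone, and Msgn1 was listed at 0 in both groups. By value alone 57.7% of all tested genes were higher with doxycycline in this line. The median difference was -0.03 on the log2(FPKM + 1) scale, beside 0.02 over all tested genes.

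Whether a response differed between the lines was tested for T, Eomes and Mixl1, the genes tested in both. The log2 response of T was 0.42 larger (SE 0.69) in the transgenic line, a normal test on the authors' deposited statistics giving p = 0.542. The corresponding differences were -0.24 for Eomes (SE 0.60, p = 0.682) and 1.04 for Mixl1 (SE 1.09, p = 0.342) by the same normal test on the authors' deposited statistics. None of the 3 was called and none had an unadjusted p under 0.05 (adjusted p = 0.99999 for each, from the authors' deposited statistics over 12638 genes), beside 0.142% of all genes called. The same values test whether the gap between the lines changed with doxycycline. These SE are approximate, since the deposited p does not follow from the statistic by a normal law. With SE taken from the deposited p, the SE were 0.56 for T, 0.41 for Eomes and 0.68 for Mixl1, and the normal test gave p = 0.451, p = 0.550 and p = 0.124 on the authors' deposited values. Neither version shows that the responses are alike for any of the 3 genes.

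**Figure D3:**
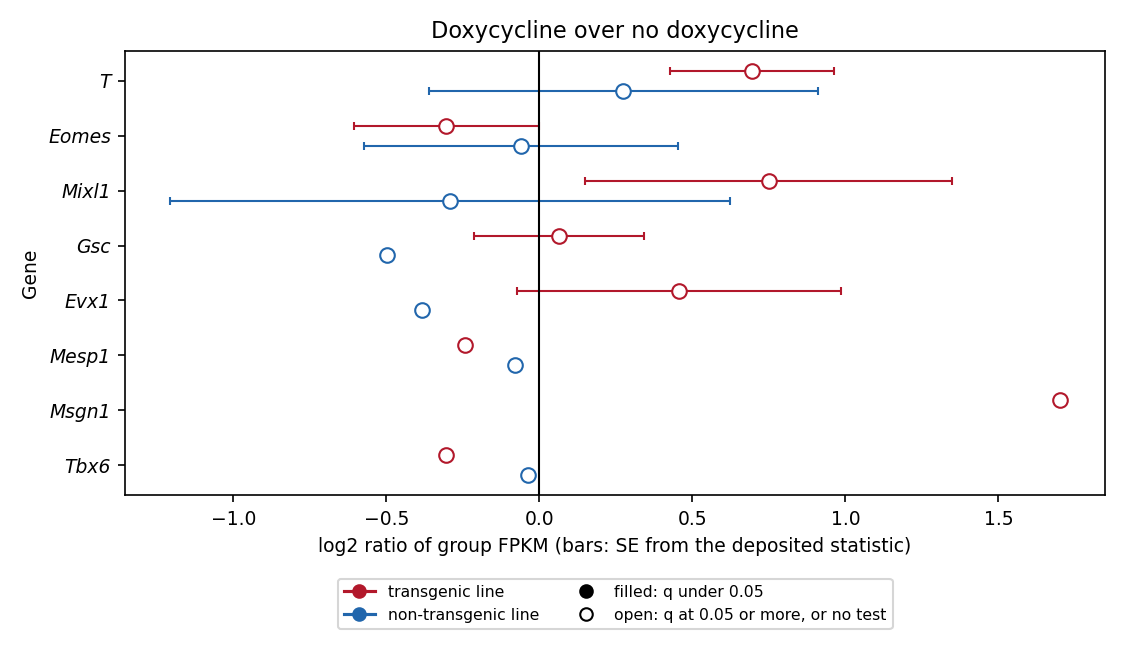
log2 ratio of group FPKM, doxycycline over no doxycycline (horizontal axis), for each gene in the transgenic (red) and the non-transgenic (blue) line; bars are 1 SE from the deposited statistic where a test was made. No point is filled, since no gene had a q under 0.05; T is at 0.70 and 0.27, Mixl1 at 0.75 and -0.29, and Msgn1, at 1.70, has no point in the non-transgenic line.

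The signals that induce the streak were examined next. Of 18 listed ligands and cofactors, 15 were tested and 4 were called higher and 1 lower in the transgenic line without doxycycline, and 6 higher and 1 lower with it, in the authors' deposited table. Over all tested genes 0.797% were called higher and 0.575% lower without doxycycline, and 0.857% higher and 0.666% lower with it. Wnt3, the ligand that starts streak formation, was at 7.02 and 7.87 FPKM in the transgenic line without and with doxycycline, against 1.44 and 1.07 FPKM. Wnt8a was at 17.3 and 15.1 against 2.45 and 2.80 FPKM. Fgf8, a signal of the streak, was at 61.8 and 55.1 against 7.01 and 5.81 FPKM, and the Tgf-beta family ligand Nodal at 56.7 and 61.8 against 24.0 and 25.8 FPKM. All 4 were called higher in both comparisons of the authors' deposited table, at the smallest possible q of 0.00812. Lefty1 and Lefty2, secreted inhibitors of Nodal, were called higher with doxycycline, Lefty1 at 324 against 185 FPKM and Lefty2 at 107 against 64.8 FPKM, and were not called without it. Fgf4, an Fgf ligand of the epiblast and ES cells, was called lower in both, at 28.9 against 49.4 FPKM without doxycycline. Wnt3a, a ligand of the later streak, was at no more than 0.160 FPKM in any group, and Bmp4 was at 3.68 against 3.13 FPKM without doxycycline and was not called. The list median was 0.24 without and 0.25 with doxycycline on the log2(FPKM + 1) scale.

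Of 36 other factors of the streak, node and early mesoderm, 35 were found by symbol and 24 were tested; 3 were called higher and 1 lower without doxycycline, and 1 higher and 1 lower with it, in the authors' deposited table. Over all tested genes the shares were 0.797% and 0.575% without and 0.857% and 0.666% with doxycycline, as above. An unadjusted p under 0.05 was found for 7 of the 24 without and 11 with doxycycline, against 860 of 13047 and 1032 of 13064 of all tested genes in the authors' deposited table. These counts join both directions. Those lower in the transgenic line were Tcf15 and Tal1 without doxycycline, and Tcf15, Tal1, Gsx1, Zic2 and Otx2 with it. The list median was 0.0078 without and 0.036 with doxycycline. Sp5, a Wnt-responsive zinc finger factor, was called higher in both comparisons, at 24.0 against 2.99 FPKM without and 34.4 against 3.34 FPKM with doxycycline. Its relative Sp8 (1.80 against 0.528 FPKM) was called higher without doxycycline, at q = 0.0462 in the authors' deposited table, and not called with it. Tcf15, a basic helix-loop-helix factor of paraxial mesoderm that ES cells also express, was called lower in both, at 50.9 against 188 FPKM without doxycycline. Of the endoderm and node factors, Foxa2 reached 0.906 FPKM at most, in the transgenic line without doxycycline, against 0.244 FPKM in the other line. Lhx1 reached 0.920 FPKM at most, in the transgenic line with doxycycline, against 0.251 FPKM. Neither was called, and Noto reached 0.023 FPKM.

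Among 24 surface, matrix and signalling genes of the streak and mesoderm, 3 of 21 tested were called higher without doxycycline and 4 of 23 with it, and none lower, in the authors' deposited table, against the same shares of all tested genes (0.797% and 0.857% higher). Axin2, a feedback target of Wnt signalling, was at 9.70 against 3.07 FPKM, the activin antagonist Fst at 20.2 against 7.09 FPKM and the junction protein gene Amot at 8.70 against 3.99 FPKM without doxycycline, and all 3 were called in both comparisons. Cyp26a1, which degrades retinoic acid, was called with doxycycline (5.27 against 0.697 FPKM). The epithelial cadherin gene Cdh1 (187 against 162 FPKM), the neural cadherin gene Cdh2 (5.96 against 5.54 FPKM) and the intermediate filament gene Vim (259.9 against 226.6 FPKM, all without doxycycline) were among those not called. The list median was 0.11 without and 0.099 with doxycycline. Of the 14 other T-box genes 4 were tested and 0 were called in either line comparison by Cuffdiff-type testing in the authors' deposited table, with 0 at an unadjusted p under 0.05 without doxycycline and 1 (Tbx20) with it. Mga (13.2 against 13.5 FPKM without doxycycline) and Tbx3 (1.89 against 2.14 FPKM) were the 2 with more than 1 FPKM.

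**Figure D4:**
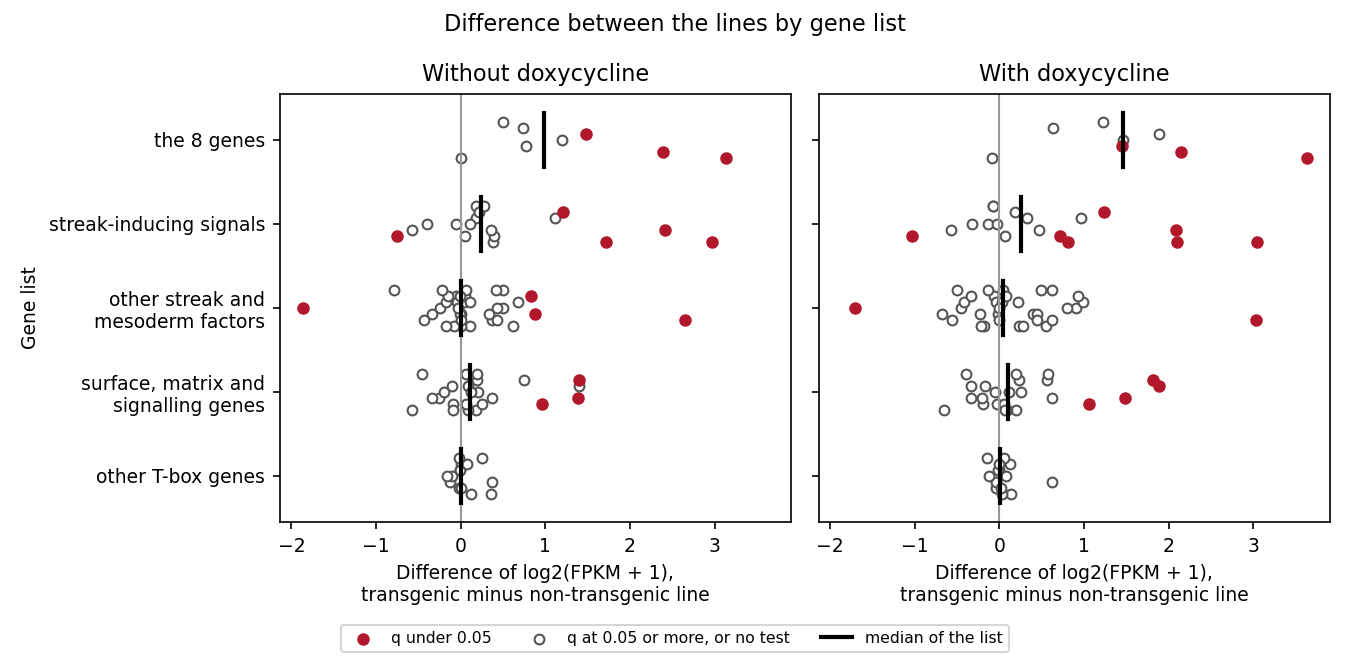
Difference of log2(FPKM + 1) between the lines (horizontal axis; transgenic minus non-transgenic), without (left) and with (right) doxycycline, for each gene of 5 lists; red points had a q under 0.05 and black bars are list medians. The bar of the 8 genes is at 0.99 and 1.45, that of the streak-inducing signals at 0.24 and 0.25, and those of the other lists lie closer to 0.

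With against without doxycycline in the transgenic line, no tested gene of these 4 lists was called: 0 of 15 tested signals, 0 of 24 other factors, 0 of 22 surface, matrix and signalling genes and 0 of 4 other T-box genes by Cuffdiff-type testing in the authors' deposited table, with 0, 2, 2 and 0 at an unadjusted p under 0.05. By the same test over all 13003 tested genes, 0.108% were called and 140 had an unadjusted p under 0.05. Counts of 0 lie near that share and show nothing particular to these lists.

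The genes with the pattern most like T over the 4 group values were Apoa2 (12.3, 9.76, 0.712 and 0.327 FPKM in the transgenic line with and without and the non-transgenic line with and without doxycycline), Sp5, Fgf8, Cyct and Gm8909. Likeness was the root mean square distance of centred log2(FPKM + 1), which was 0.242 for Apoa2, 0.278 for Sp5, 0.378 for Fgf8, 0.386 for Cyct and 0.527 for Gm8909, among 12565 genes that reached 1 FPKM in some group. Eomes was at place 11 in that order, at a distance of 0.657. Nearest to Eomes were Wnt8a (0.0746), Glyatl3 (0.0838), Mid1 (0.150), Gm8909 (0.161) and Snord15a (0.203). Apoa2, Gm8909, Glyatl3 and Snord15a passed the floor of 1 FPKM through the transgenic line alone. Snord15a was listed at 0 in both non-transgenic groups. The place of these genes among the nearest therefore supports nothing. With 4 points per gene these distances are descriptions, and all points share the same libraries.

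The nearest protein-coding genes on either side of the 8 genes were not called in either line comparison. Of these 16 neighbours 10 were tested without and 10 with doxycycline, 0 were called by Cuffdiff-type testing in the authors' deposited table and 0 had an unadjusted p under 0.05. Among all tested genes 179 of 13047 were called without and 199 of 13064 with doxycycline. An unadjusted p under 0.05 by that test was found for 860 and 1032 of them. Counts of 0 of 10 lie near these shares and show nothing particular to the neighbours. Golga4, 20.2 kb from Eomes, was at 14.0 against 15.3 FPKM without doxycycline, and Lin9, 2.36 kb from Mixl1, at 9.35 against 8.48 FPKM. T2, 11.7 kb from T, was at 0.0562 against 0.0805 FPKM and Mesp2, 17.1 kb from Mesp1, at 0.589 against 0.479 FPKM, both without a test. Hoxa13, the nearest gene of the HoxA cluster to Evx1 at 47.5 kb, was at 0.0222 against 0.0287 FPKM. The antisense transcript at Evx1, 5730457N03Rik, was at 0.468 against 0.0680 FPKM without and 0.880 against 0.0506 FPKM with doxycycline. It was thus higher in the transgenic line by value alone, as Evx1 was, and no test result is given for it here.

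The labelled cell type was checked with marker lists. All 12 pluripotency markers were above 1 FPKM in every group, with summed levels from 4043 to 4381 FPKM. Sox2 and Fgf4 were called lower and Nanog and Zfp42 higher in the transgenic line in both comparisons. Esrrb (19.7 against 32.8 FPKM without doxycycline), Klf4 (9.17 against 15.1 FPKM) and Klf2 (21.3 against 34.4 FPKM) were lower in both and not called. Of the 12 markers 6 were higher and 6 lower without doxycycline by value alone, and 4 higher and 8 lower with it. The list median was -0.17 without and -0.19 with doxycycline on the log2(FPKM + 1) scale. Some markers of other cell types moved with the line, and in bulk RNA fewer cells of a type and less RNA per cell cannot be told apart. In this paragraph each pair of sums gives the group without doxycycline first. Embryonic fibroblast (feeder) markers summed to 775 and 826 FPKM in the transgenic line and to 551 and 558 FPKM in the other. In each group 13 or 14 of 15 markers were at 1 FPKM or more. Tagln (188 and 219 against 101 and 106 FPKM) was called higher in both comparisons and Acta2 with doxycycline. Of the 15 markers 13 were higher and 2 lower without doxycycline by value alone, and 12 higher and 3 lower with it. Thy1 and Col6a1 were lower in both. The list median was 0.22 without and 0.15 with doxycycline on the log2(FPKM + 1) scale. Primitive endoderm markers summed to 191 and 199 against 136 and 141 FPKM, mostly from Sparc, while Sox17 (0.142 FPKM at most) and Gata6 (0.434 FPKM at most) were near 0 and Lama1 was called lower in both comparisons. Trophoblast markers summed to 225 and 373 against 84.6 and 74.5 FPKM, nearly all from the keratins Krt8 and Krt18, with Tpbpa listed at 0 in all groups, Prl3d1 and Elf5 under 0.11 FPKM, and Cdx2 at 1.42 against 0.514 FPKM without doxycycline and not called. Krt8 and Krt18 were also called higher with than without doxycycline in the transgenic line. The definitive endoderm and anterior streak markers summed to 45.6 and 39.9 against 51.4 and 51.9 FPKM, with none called. These sums come mostly from Otx2, at 38.6 and 32.2 against 45.2 and 45.9 FPKM, and the lower sum rests on it. Of the 10 markers 5 were higher and 5 lower without doxycycline by value alone, and 6 higher and 4 lower with it. Their list median was 0.039 without and 0.16 with doxycycline on the log2(FPKM + 1) scale. The neurectoderm markers summed to 132 and 118 against 112 and 101 FPKM, with Pax6 called lower with doxycycline. The higher neurectoderm sum rests on Olig2, a factor of motor neuron and oligodendrocyte precursors, at 30.5 and 25.8 against 0.0854 and 0.0784 FPKM and not called (p = 0.00865 and p = 0.022 in the authors' deposited table). Without Olig2 the neurectoderm sums were 102 and 92.4 against 112 and 101 FPKM, lower in the transgenic line. The part of these cell types in the differences of the 8 genes was not tested.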

How the data were processed

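RNA from 8 libraries of mouse ES cells (total RNA, 75 bp single-end reads) was analysed from 1 deposited gene table whose column names are those of Cuffdiff, with 23284 entries in each of 6 pairwise comparisons. TopHat2 2.0.8, Cufflinks 2.1.1 and genome build mm10 are named per the submitters' processing notes; no source used here gives their roles, the annotation, the strand setting or the library normalization. The authors deposited FPKM as 1 value per gene and group over both libraries, a test statistic (a score without a fixed range), a p-value (smallest 5e-05) and a q-value. The deposited q-value equals Benjamini-Hochberg adjustment over all 78127 tests of the 6 comparisons within 5.21e-07. Groups were taken from the sample titles.

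Genes count as called where the authors' status says a test was made and q was under 0.05, and this Cuffdiff-type fit over all genes was not refitted. Ratios were computed from the deposited FPKM, because some deposited fold change cells held error text. The difference between responses was tested with a two-sided normal test over all genes tested in both lines, with SE as the log2 ratio over the test statistic (approximate, and alternatively from the deposited p) and Benjamini-Hochberg adjustment, in scipy 1.17.1; this code was tested on simulated data. Differences on the log2(FPKM + 1) scale use a pseudocount of 1 and understate changes of low genes. The members and gene lists were chosen with earlier results of these data known. Named genes are the 8 members, the called genes of each list (up to 8), the 5 nearest patterns of T and of Eomes, and other listed, marker or neighbouring genes chosen after their values were seen. The values of 1 called gene of the lists are not reported here. Promoters came from the RefSeq table of GRCm38.p6, and exons from GENCODE M21.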

Additional observations from a re-analysis of the deposited data

How the results depend on the processing

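No paired analysis was possible because the deposited table joins both libraries of each group into 1 value, although the titles tie the libraries into 2 sets, and for the same reason no replicate could be left out. The counts of called members (3, 3, 0 and 0, and 0 for the difference between responses) stayed within 1.5 times under every alternative run: q under 0.01 or 0.1, adjustment within 1 comparison, a minimum of 1 or 5 FPKM, and SE from the deposited p for the difference between responses. Evx1 without and Mixl1 with doxycycline were no longer called at q under 0.01 or at 5 FPKM or more, which left 2 genes (T and Eomes) in each line comparison, and Evx1 was called with doxycycline at q under 0.1, which made 4. The FPKM minimum applied to the larger group value. T and Eomes passed 5 FPKM through the transgenic line alone, as Evx1 and Mixl1 passed 1 FPKM. The counts under these minimums therefore support nothing. The size of the median difference of the 8 genes depends on the scale. Between the lines it was 2.27 without and 2.38 with doxycycline with a pseudocount of 0.1, 1.10 and 1.62 on the TPM scale, and 1.48 and 1.68 over members at 1 FPKM or more in either group, a floor that Mixl1, Gsc and Evx1 (and Msgn1 with doxycycline) passed through the transgenic line alone, so these medians support nothing. With doxycycline in the transgenic line the median was 0.44 over members at 1 FPKM or more in either group. Msgn1 passed this floor through the doxycycline group alone (1.34 against 0.412 FPKM), so this median supports nothing either. In the non-transgenic line the sign turned, to 0.067, when only the members at 1 FPKM or more (T and Eomes) were kept. Of the 32 differences of single genes per setting, 1 changed sign on the TPM scale (Tbx6 without doxycycline, to -0.01) and 0 on the median-ratio scale or with a pseudocount of 0.1. Depth per library is unknown, and 3 members (Mesp1, Msgn1 and Tbx6) had no test by the authors in any comparison.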

Other observations

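The deposited table also compares the groups that differ in both line and doxycycline, in which the 2 cannot be told apart. Evx1, at 3.44 FPKM in the transgenic line with doxycycline against 0.262 FPKM in the non-transgenic line without it, had q = 0.0252 in the authors' deposited table, and Mixl1, at 3.50 against 0.800 FPKM, had q = 0.0145. In the opposite pairing, the transgenic line without against the non-transgenic line with doxycycline, the authors' deposited table gave Evx1 q = 0.131 and Mixl1 q = 0.343, while T and Eomes had q = 0.00812 in both. Gsc had q = 0.382 and q = 0.390 in these comparisons of the authors' deposited table, at statistics of 4.62 and 4.52 that exceed the 2.91 and 2.06 of Mixl1.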
